A study of Mus musculus with 18 samples.

Results

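The small leucine-rich proteoglycans are secreted matrix proteins, and 10 of their genes (Dcn, Bgn, Aspn, Lum, Fmod, Prelp, Kera, Omd, Ogn and Podn) were followed here among the 55453 gene symbols of a bulk RNA sequencing count table. They were taken by gene name, with earlier results of these data known. At least 1 count was found for all 10, and 9 passed the filter on low counts, Kera being the exception. These proteins carry a curved domain of leucine-rich repeats that binds collagen, and many of them also carry chondroitin, dermatan or keratan sulfate chains. Bound to collagen fibrils they set the spacing and the width of the fibrils, and free in the tissue several of them bind growth factors of the TGF-beta family or signal through cell surface receptors. In the heart they are made mainly by fibroblasts.

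The cells came from C57BL/6J pups carrying 1 copy each of the Tcf21 MerCreMer and Rosa mTmG alleles (MerCreMer/+; mTmG/+), in which a Cre driven by Tcf21 and released by tamoxifen, given at P1 to every group, switches cells of the Tcf21 lineage from tdTomato to membrane GFP. P denotes the postnatal day. With atria and valves removed, the apical portion of the ventricles, not the resected tip alone, was dissociated and its GFP+ cells sorted, for 6 groups of 3 libraries. The P2 baseline and P10 baseline pups were not operated on, while the P2 sham, P2 resected, P10 sham and P10 resected pups had sham surgery or apical resection at that age and were collected 3 days later, at P5 or P13. The question put to these groups was how fibroblasts change between an age at which the heart regenerates and an age at which it does not, and how they respond to resection at each. Cells in which the Cre was not active at P1 are not in the sort, and neither sex nor the number of pups behind a library is stated in the labels. Nothing says that replicates came from separate animals, so p-values measure the spread between these libraries, which may be technical.

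Each library held between 10462737 and 22980554 counted reads. P10 baseline replicates 2 and 3 stand apart in 3 ways. Their titles alone end in a letter P, whose meaning is not given in the labels, their mitochondrial share of counts was the lowest (0.253% and 0.198%, against 0.442% to 1.07% in the other 16 libraries), and they were lowest in genes of low GC content relative to genes of high GC content. Many comparisons with age are also given without both for the members and the gene lists, where a call, a sign or a rank changed. Levels are given as CPM, the counts of a gene relative to the library size after TMM scaling, with the SD over the 3 libraries of a group. Tcf21 was detected in every library at 202 to 447 CPM and Pdgfra, a receptor that marks fibroblasts, at 256 to 878 CPM, and neither was called between the ages (adjusted p = 0.993 and 0.22 by edgeR's quasi-likelihood F-test after Benjamini-Hochberg adjustment). Markers of other cells were present as well. In their highest libraries the mural cell and cardiomyocyte sums exceeded the levels of Tcf21 and Pdgfra. The fibroblast sum given beside them is for the larger share Col1a1 and Col1a2. The summed level of 10 macrophage genes was 5.29 to 988 CPM, of 9 endothelial genes 175 to 481 CPM, of 8 mural cell genes 388 to 1481 CPM, of 8 epicardial genes 0 to 57.4 CPM and of 10 cardiomyocyte genes 163 to 1476 CPM, against 10588 to 31667 CPM for 5 fibroblast genes. In sorted bulk cells, fewer cells of a type and less RNA per cell cannot be told apart.

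Promoter sequence is shown for 4 of the genes because the results below turn on them. Podn had the largest difference between the ages, Bgn was the member, though not called, whose resected and sham libraries did not overlap at either age, and Aspn and Ogn moved together from library to library. The sequences are those of RefSeq on GRCm38.p6, running from 250 bases before to 50 bases after the start of the transcript, 5′ to 3′ on the strand of the gene. They lie at chr4:108031905-108032204 on the minus strand for Podn, chrX:73483351-73483650 on the plus strand for Bgn, chr13:49544193-49544492 on the plus strand for Aspn and chr13:49607765-49608064 on the plus strand for Ogn. Capitals mark matches, on either strand, to the letters of 5 motifs that are spelled out below.
Podn: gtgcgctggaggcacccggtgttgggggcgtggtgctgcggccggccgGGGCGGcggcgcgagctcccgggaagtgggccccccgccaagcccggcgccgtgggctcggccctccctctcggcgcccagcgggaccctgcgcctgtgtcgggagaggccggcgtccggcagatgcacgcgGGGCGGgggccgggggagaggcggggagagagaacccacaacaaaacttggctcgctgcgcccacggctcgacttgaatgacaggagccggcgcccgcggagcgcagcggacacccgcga
Bgn: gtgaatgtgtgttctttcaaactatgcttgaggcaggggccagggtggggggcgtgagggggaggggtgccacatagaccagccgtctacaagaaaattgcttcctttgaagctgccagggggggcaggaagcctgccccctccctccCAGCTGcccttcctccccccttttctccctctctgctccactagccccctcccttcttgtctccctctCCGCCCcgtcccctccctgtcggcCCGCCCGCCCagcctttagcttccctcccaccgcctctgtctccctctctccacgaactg
Aspn: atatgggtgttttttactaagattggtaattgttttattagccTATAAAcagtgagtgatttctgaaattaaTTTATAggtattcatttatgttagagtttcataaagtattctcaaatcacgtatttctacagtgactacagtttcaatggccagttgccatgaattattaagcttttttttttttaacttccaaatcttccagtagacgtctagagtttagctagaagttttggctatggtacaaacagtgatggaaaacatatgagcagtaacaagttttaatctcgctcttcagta
Ogn: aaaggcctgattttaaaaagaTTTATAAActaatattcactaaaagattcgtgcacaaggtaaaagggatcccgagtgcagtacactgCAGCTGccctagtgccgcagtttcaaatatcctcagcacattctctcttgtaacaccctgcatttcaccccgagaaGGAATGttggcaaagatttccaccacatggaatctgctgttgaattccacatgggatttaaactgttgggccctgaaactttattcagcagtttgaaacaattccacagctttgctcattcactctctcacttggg
The Podn window had a GC content of 77% and the Bgn window 63.7%, both above the upper quartile of 61.7% over 32851 promoter windows of the same length. The Aspn window had 31.0% and the Ogn window 42.3%, both under the lower quartile of 45.7%. The GC box, searched as GGGCGG, matched at 2 places in the Podn window and at 3 in the Bgn window, where the last 2 overlap, and 35.7% of all windows held it. The TATA box, searched as TATAAA, matched at 2 places in the Aspn window and at 2 overlapping places in the Ogn window, and 13.6% of all windows held it. Counted from the start of the transcript, the first of these matches begins at position -207 in Aspn and -229 in Ogn. An E-box with the letters CAGCTG was found in the Bgn and Ogn windows and in 16.3% of all windows. The MCAT element, searched as CATTCC, was found in the Ogn window and in 14.7% of all windows. The AP-1 site, searched as TGANTCA, was found in none of the 4 and in 7.81% of all windows. A match is a run of letters and was not tested as a binding site. Podn has a further listed start, at chr4:108030937-108031236, with a GC content of 63.0% and 1 match to CAGCTG. The annotated span of Podn begins upstream of both windows, at chr4:108096445 on the minus strand, and no window was listed for that end. In all, 8 of the 10 genes had a window in the table, and Dcn and Lum had none.

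With their neighbours, the genes sit in clusters in the GRCm38 annotation. Dcn (chr10:97479609-97518143), Lum (chr10:97565128-97572703) and Kera (chr10:97606879-97613692) lie in a row on the plus strand, 46984 and 34175 bases apart, followed by the related gene Epyc. Ecm2, Aspn (chr13:49544443-49567565), Omd (chr13:49582462-49592822) and Ogn (chr13:49608046-49624501) lie in a row on the plus strand of chromosome 13, at distances of 11653, 14896 and 15223 bases, within the span of Cenpp, a centromere gene of the opposite strand. Prelp (chr1:133910304-133921414, minus strand) and Fmod (chr1:134037254-134048277, plus strand) lie 115839 bases apart on chromosome 1 and are transcribed away from each other, and Bgn (chrX:73483602-73495933) and Podn (chr4:108014791-108096445) stand apart from the others. Reads were counted without regard to strand, which bears on 2 genes. Exons of Prelp overlap those of Gm15851 over 9.68% of their length. Gm15851 had 15 counts in all libraries together, which does not show how many Prelp reads in the overlap went uncounted. Exons of Aspn overlap those of Cenpp by 7 bases, and Cenpp itself fell by 2.33 on the log2 scale between the ages (adjusted p = 0.000115 in edgeR).

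The levels of the 10 genes spanned several orders of magnitude. Together they took 1.05% to 2.64% of the counts of a library, and Dcn ranked between second and seventh among all genes in every library. Per kb of annotated exon, the mean over 18 libraries was 1781 CPM per kb for Dcn, 1209 for Lum, 393 for Aspn, 287 for Bgn, 280.2 for Ogn and 140.2 for Prelp. It was 7.95 CPM per kb for Podn, 5.11 for Fmod, 3.39 for Omd and 0.0265 for Kera. The place of Bgn depended on the length used, since its annotated exons sum to 6099 bases over 8 transcripts while its longest transcript has 2666. Divided by the longest transcript, Bgn stood at 656 CPM per kb, above Aspn at 397 and Ogn at 280.2, and the order of the other genes did not change. Dcn and Lum, a pair of collagen-binding proteoglycans found in most connective tissues, were thus the most abundant members per length by either measure.

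**Figure D1:**
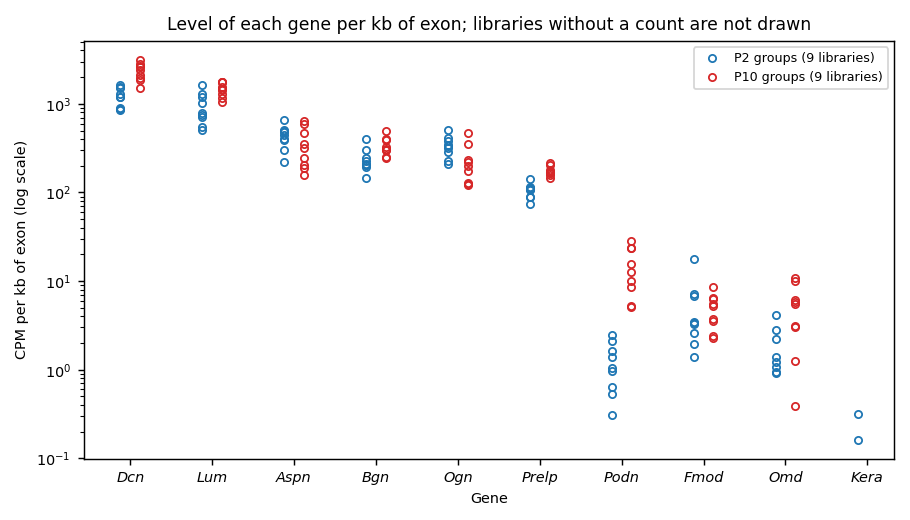
Level of each gene per kb of annotated exon (CPM per kb, log axis), with 1 open circle for each library, blue for the 9 libraries of the P2 groups and red for the 9 of the P10 groups. Dcn and Lum stand highest, at means of 1781 and 1209 CPM per kb, Podn, Fmod and Omd lie under 10 in the mean, and Kera was counted in 2 libraries only.

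Kera, keratocan, best known from the cornea, had 8 counts in P2 baseline replicate 2 and 13 in P2 resected replicate 3, and none in the other 16 libraries. These counts correspond to 0.372 and 0.715 CPM. A count of 0 allows up to 3 counts, which is 0.128 to 0.296 CPM depending on the library, and covers counting error only. No P10 library held a Kera read, and a difference between the ages was not detectable at this depth.

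The first comparison asked how the cells of P10 hearts differed from those of P2 hearts without surgery. Dcn, Lum and Podn were higher at P10 baseline than at P2 baseline, and no member was called lower. Thus 3 of the 9 members tested were called, against 4.38% of all 16170 genes tested and 2.71% called higher. Over the members the median log2 fold change was 0.83, with 7 of 9 above 0, against a median of -0.03 over all genes. For 6 members every P10 baseline library lay above every P2 baseline library, as held for 10.3% of all genes. When all 3 groups of an age were joined, as a P10 window of 9 libraries against a P2 window of 9, 5 members were called higher (Dcn, Bgn, Lum, Prelp and Podn), against 13.5% of all genes (7.11% higher). After sham surgery 2 members were called (Prelp and Podn, against 3.18% of all genes and 1.54% called higher), and 5 lay wholly above P2 (9.07% of all genes). After resection 1 was called (Podn, against 0.860% and 0.625% called higher), and 3 lay wholly above P2 (10.6% of all genes). Without P10 baseline replicates 2 and 3, an alternative added after the values were seen in which the lone P10 baseline library is assumed to vary like the other groups, no member was called at baseline, 135 genes in place of 709 were, and the same 5 members were called over the windows. Hearts of P10 and older were also digested longer than younger ones, so that age and digestion cannot be told apart.

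**Figure D2:**
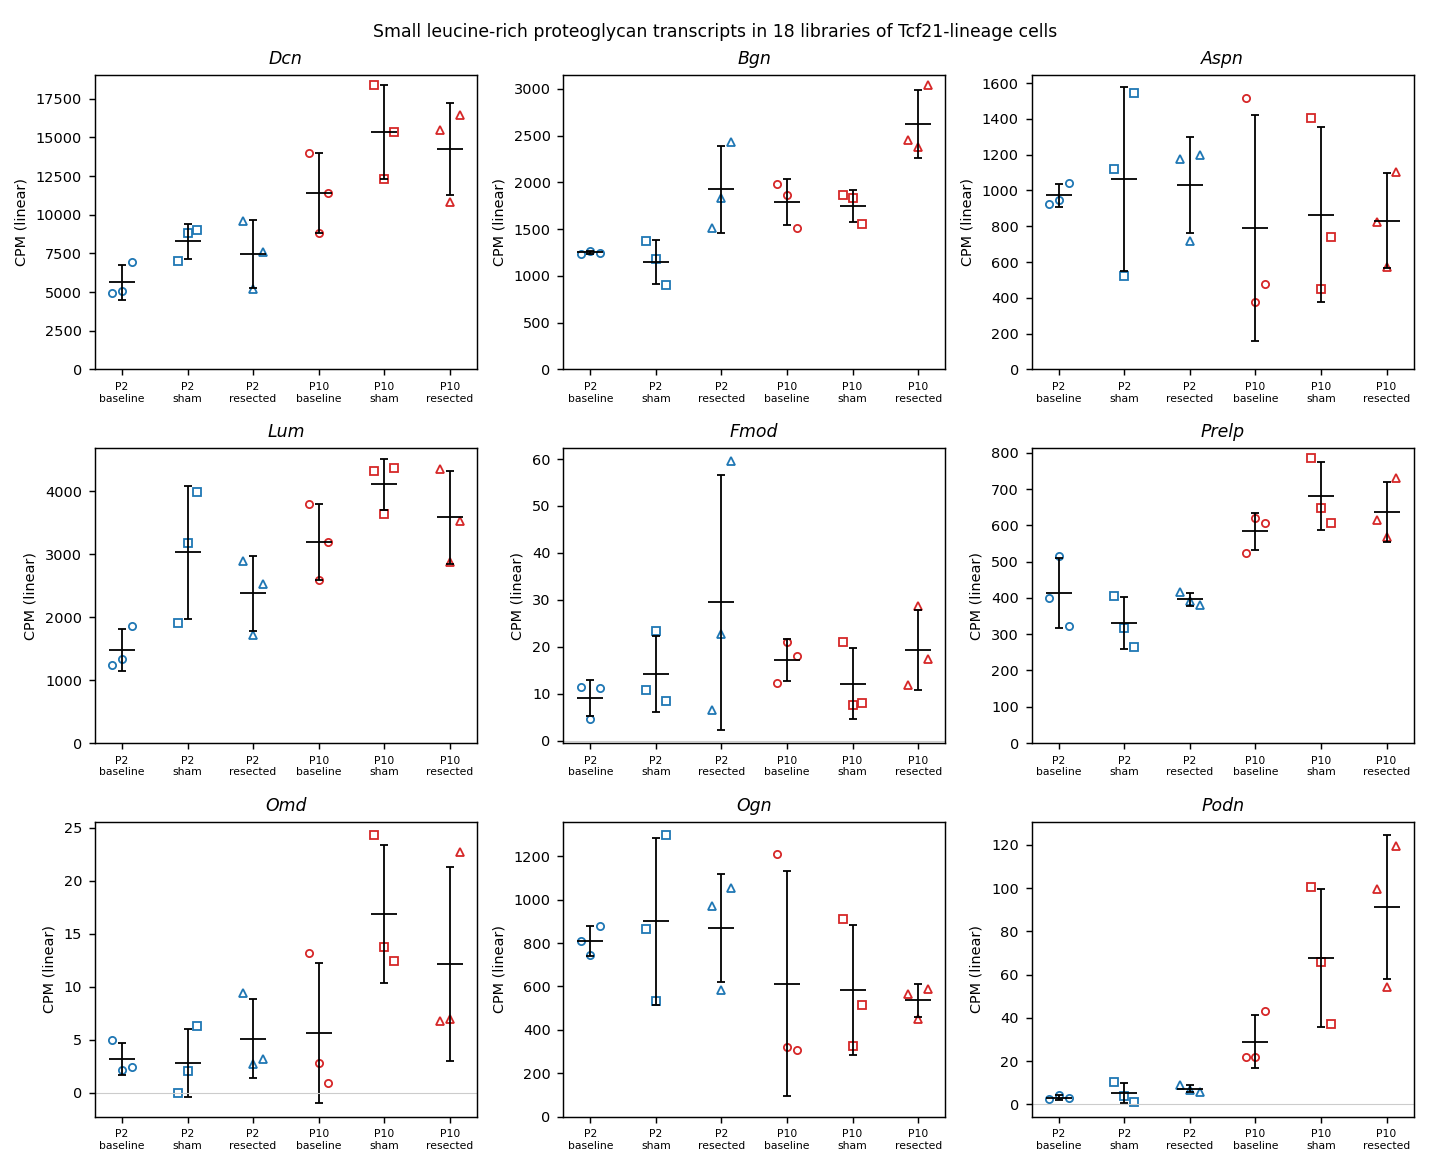
CPM (linear axis) of the 9 genes that passed the filter, in every library of the 6 groups, with replicates 1 to 3 from left to right, circles for baseline, squares for sham, triangles for resected, blue for P2 and red for P10. Horizontal bars and whiskers are the mean and SD of 3 libraries, and the SD of Omd reaches under 0 in 2 groups. Every P10 library lies above every P2 library for Podn and Prelp, and Aspn and Ogn spread widely within groups.

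Podn, podocan, known to hold back the growth of smooth muscle cells, showed the largest difference. Its level at P2 baseline was 2.30, 4.42 and 2.74 CPM in replicates 1 to 3, and at P10 baseline 21.7, 22.1 and 43.2 CPM. After sham surgery it was 10.5, 4.10 and 1.30 CPM at P2 and 100.4, 65.8 and 37.0 CPM at P10. After resection it was 9.03, 6.87 and 5.94 CPM at P2 and 99.6, 54.4 and 119.6 CPM at P10. All 9 P10 libraries lay above all 9 P2 libraries, a separation in this direction seen for 1.15% of all genes and, among the members, also for Prelp. The log2 fold change between the windows was 3.50 (95% interval 2.77 to 4.23), or 11.3-fold, with an adjusted p of 3.28e-06 by edgeR's quasi-likelihood F-test after Benjamini-Hochberg adjustment. It was 3.19 at baseline (adjusted p = 0.00534), 3.67 after sham surgery (adjusted p = 0.00201) and 3.65 after resection (adjusted p = 0.0054) in the same edgeR test. Without P10 baseline replicates 2 and 3 the baseline value was 2.80 and not called (adjusted p = 0.0901 in edgeR), and the window value was 3.38 (adjusted p = 5.12e-05). The sham value went to 4.63 without P2 sham replicate 1 (adjusted p = 0.000831) and lost its call when only the 2 groups compared were fitted (3.66, adjusted p = 0.0803 in edgeR). The value after resection kept its size but not its call without P2 resected replicate 2 (3.61, adjusted p = 0.063) or replicate 3 (3.52, adjusted p = 0.0537). The age differences in operated and unoperated pups did not differ beyond their error, with a difference of 0.47 for sham (95% interval -1.18 to 2.12) and of 0.45 for resected (95% interval -1.20 to 2.10). At P2 the counts were few, with 948 Podn counts in 9 libraries against 9428 at P10. Within P10, the mean was 29.0 ± 12.3 CPM at baseline and 67.8 ± 31.7 CPM after sham surgery, but the groups overlapped and the log2 fold change of 1.23 was not called (adjusted p = 0.658 in edgeR, and 1.65 with adjusted p = 0.418 without P10 baseline replicates 2 and 3).

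Dcn, decorin, the class I proteoglycan with a chondroitin or dermatan sulfate chain that binds collagen fibrils and TGF-beta, was already among the most abundant transcripts at P2. It stood at 4932, 5045 and 6955 CPM at P2 baseline and at 14014, 8832 and 11396 CPM at P10 baseline. The groups did not overlap, and the log2 fold change was 1.02 (95% interval 0.48 to 1.55, adjusted p = 0.0286 in edgeR). This call was lost without P2 baseline replicate 1 (0.93, adjusted p = 0.138), P2 baseline replicate 2 (0.94, adjusted p = 0.126), P10 baseline replicate 1 (0.84, adjusted p = 0.0649) or P10 baseline replicate 3 (1.02, adjusted p = 0.0784), and also when only the 2 groups compared were fitted (1.04, adjusted p = 0.0579 in edgeR). Without P10 baseline replicates 2 and 3 together it was 1.33 (adjusted p = 0.0705 in edgeR). After sham surgery Dcn was 8280.1 ± 1111 CPM at P2 and 15339.5 ± 3038 CPM at P10, and after resection 7462 ± 2178 and 14259 ± 2984 CPM. These groups did not overlap either, with log2 fold changes of 0.89 (adjusted p = 0.0659 in edgeR) and 0.93 (adjusted p = 0.105). These differences were called in several other fits, after sham surgery without a filter on low counts (adjusted p = 0.0241 in edgeR), by DESeq2 (0.0205), by limma voom (0.0412), with the replicate number as a block (0.028) and with the GC term described below (0.0116). After resection they were called in the same fits other than limma voom (adjusted p = 0.0286, 0.0198, 0.0348 and 0.0197). Other fits left the sham difference uncalled, with an adjusted p of up to 0.201 in edgeR. With any single library left out neither difference was called, and the adjusted p in edgeR reached 0.213 after sham surgery and 0.544 after resection. Over the windows the log2 fold change was 0.95 (95% interval 0.64 to 1.25, adjusted p = 0.000262 in edgeR), a 1.93-fold difference, and the 2 windows overlapped, the highest P2 library at 9574 CPM and the lowest P10 library at 8832 CPM. The order of the group means ran P10 sham, P10 resected, P10 baseline, P2 sham, P2 resected and P2 baseline, and each neighbouring pair in that order overlapped.

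Lum, lumican, a class II member with keratan sulfate chains that also binds collagen, followed Dcn closely. It was 1237, 1328 and 1854 CPM at P2 baseline and 3796, 2587 and 3192 CPM at P10 baseline. All P10 baseline libraries lay above all P2 baseline libraries, with a log2 fold change of 1.12 (95% interval 0.54 to 1.69, adjusted p = 0.0258 in edgeR). This call was lost without the same 4 libraries as that of Dcn, with log2 fold changes of 1.00 and 1.04 without P2 baseline replicates 1 and 2 (adjusted p = 0.13 and 0.114 in edgeR), and of 0.97 and 1.11 without P10 baseline replicates 1 and 3 (adjusted p = 0.0535 and 0.0721). Without P10 baseline replicates 2 and 3 together it was 1.39 (adjusted p = 0.0897 in edgeR). The 3 P2 sham libraries, at 1909, 3180.3 and 3991 CPM, also lay above P2 baseline (log2 fold change 1.04), but with an adjusted p of 0.408 in edgeR this was not called. DESeq2 called that difference (adjusted p = 0.0276), and so did edgeR without a filter on low counts (adjusted p = 0.0364). Lum in P2 sham overlapped P10 sham, at 4319.6, 3639.9 and 4367 CPM, and the log2 fold change of 0.44 between them was not called (adjusted p = 0.446). Over the windows Lum was 1.64-fold higher at P10, with a log2 fold change of 0.72 (95% interval 0.39 to 1.05, adjusted p = 0.00463 in edgeR). The ratio of Dcn to Lum per kb varied between 0.947 in P2 sham replicate 3 and 1.96 in P10 resected replicate 3.

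Prelp, a class II member without glycosaminoglycan chains that bridges heparan sulfate and collagen at basement membranes, separated the ages in every library. It ranged from 266 to 515 CPM over the 9 P2 libraries, with a median of 392 CPM, and from 525 to 787 CPM over the 9 P10 libraries, with a median of 614 CPM. The lowest P10 library, P10 baseline replicate 1 at 525 CPM, lay just above the highest P2 library, P2 baseline replicate 2 at 515 CPM. The log2 fold change between the windows was 0.74 (95% interval 0.49 to 1.00, adjusted p = 0.000416 in edgeR), or 1.67-fold. At baseline alone it was 0.50 and not called (adjusted p = 0.204), after sham surgery 1.04 (adjusted p = 0.00904) and after resection 0.69 (adjusted p = 0.176 in edgeR, but 0.0406 by DESeq2, which called it). The baseline value was 0.36 without P10 baseline replicates 2 and 3 (adjusted p = 0.638 in edgeR). The sham call was lost without P2 sham replicate 3 (0.91, adjusted p = 0.0554 in edgeR) and when only the 2 groups compared were fitted (1.04, adjusted p = 0.15). The age difference after sham surgery exceeded that at baseline by 0.55, with a 95% interval of -0.07 to 1.16, so that a difference between them was not shown.

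Bgn, biglycan, the class I relative of Dcn that also binds receptors of innate immunity, was 1252 ± 15.8 CPM at P2 baseline and 1789 ± 248 CPM at P10 baseline. The 3 libraries of each group did not overlap, but the log2 fold change of 0.52 was not called (adjusted p = 0.184 in edgeR, and 0.69 with adjusted p = 0.321 without P10 baseline replicates 2 and 3). Over the windows it was 0.52 as well (95% interval 0.27 to 0.77) and was called (adjusted p = 0.00634 in edgeR), a 1.44-fold difference. Per kb, the level of Dcn was between 2.98 and 10.5 times that of Bgn in the same library, lowest in P2 resected replicate 2 and highest in P2 sham replicate 3. This ratio divides by all annotated exons and is lower with the longest transcripts, by which the mean levels were 2216 and 656 CPM per kb.

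**Figure D3:**
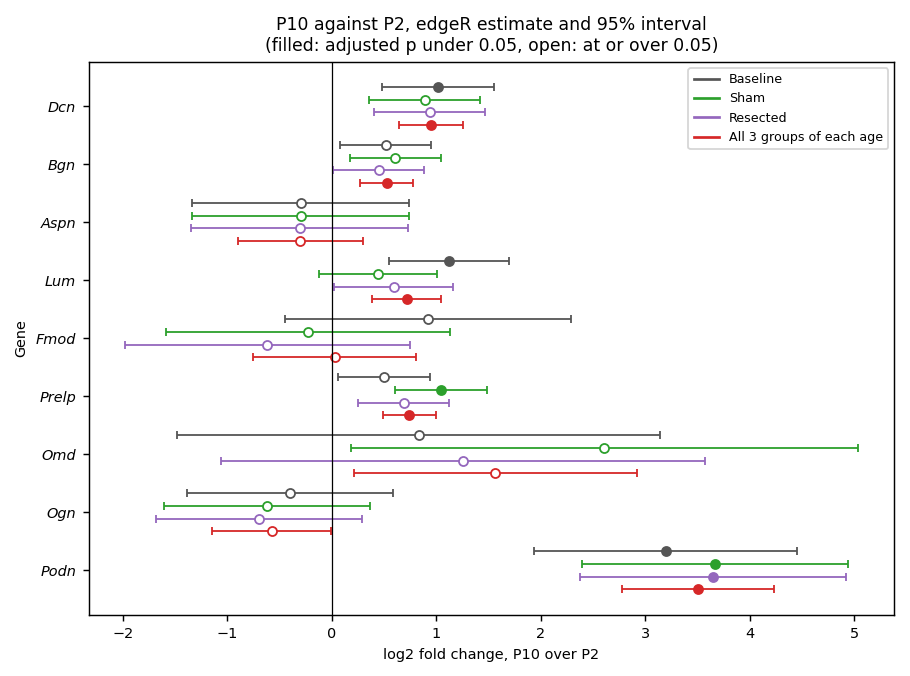
Log2 fold change of P10 over P2 for each gene in edgeR's quasi-likelihood fit, at baseline (grey), after sham surgery (green), after resection (purple) and over all 3 groups of each age (red), with 95% intervals. Filled points have an adjusted p under 0.05. Podn lies near 3.5 in all 4, Dcn near 1, and Aspn and Ogn at or under 0 with wide intervals.

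Aspn and Ogn were not called between the ages in the fit of all libraries and showed a spread unlike that of the other abundant members. Aspn, asporin, a class I member with a run of aspartate and no glycosaminoglycan chain, binds TGF-beta and collagen. It was 926, 946 and 1043 CPM at P2 baseline and 1519, 375 and 478 CPM at P10 baseline. Ogn, osteoglycin or mimecan, the class III member, was 809, 743 and 881 CPM at P2 baseline and 1211, 319.6 and 308 CPM at P10 baseline. For both genes P10 baseline replicate 1 lay above all P2 baseline libraries and the other P10 baseline libraries lay below them. Among sham libraries Aspn was 1120.5, 522 and 1545 CPM at P2 and 1404, 448 and 741 CPM at P10, and Ogn was 866, 534 and 1300.4 CPM at P2 and 912, 326 and 516 CPM at P10. Here too the same libraries were high and low for both genes. In the resected groups Aspn was 1176, 719 and 1195 CPM at P2 and 823, 570.3 and 1101 CPM at P10, and Ogn was 970.2, 584 and 1053 CPM at P2 and 568, 449 and 591 CPM at P10. Over the windows the log2 fold change was -0.30 for Aspn (95% interval -0.90 to 0.30, adjusted p = 0.542) and -0.57 for Ogn (95% interval -1.15 to -0.005, adjusted p = 0.174), both from edgeR's quasi-likelihood test. Without P10 baseline replicate 1, Ogn was called lower both over the windows (-0.90, adjusted p = 0.00654) and at baseline (-1.37, adjusted p = 0.0471 in edgeR). Over the windows Ogn was also called lower without a filter on low counts (-0.54, adjusted p = 0.017 in edgeR) and with the replicate number as a block (-0.65, adjusted p = 0.0481). Aspn at baseline turned from -0.30 to 0.04 without P10 baseline replicate 2. Without both P10 baseline replicates 2 and 3, Aspn at baseline was 0.66 and Ogn 0.60, and over the windows they were 0.03 and -0.23, none of them called (adjusted p from 0.623 to 0.997 in edgeR).

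Of all 16170 genes tested, the one whose log2 level over the 18 libraries was closest to that of Aspn was Ogn, of the same cluster with Omd between them, and the reverse also held, with a root mean square difference of 0.21 after each profile was centred on its mean. Over the 16 libraries other than P10 baseline replicates 2 and 3, Ogn was again the closest to Aspn (0.21), while Aspn was second to Zdhhc20 for Ogn. Over all 18, the next closest to Aspn were Odr4, Evi5 and Krit1 (0.28 each), and to Ogn they were Matr3 (0.21), Zdhhc20 and Sept7 (0.26 each). The share of G and C in the longest annotated transcript was 34.3% for Aspn and 36.3% for Ogn, and only 0.261% and 1.03% of the tested genes had a lower share. It was 38.6% for Matr3, 38.8% for Zdhhc20, 35.7% for Sept7, 39.0% for Krit1, 40.9% for Evi5 and 43.0% for Odr4, while the median over tested genes was 49.5%. Libraries differed in how such genes stood. The median level of the tenth of genes with the lowest GC share, less that of the tenth with the highest, ran from -1.21 in P10 baseline replicate 3 and -1.15 in P10 baseline replicate 2 to 0.69 in P2 baseline replicate 1 (log2 units, members left out). It was 0.48 in P10 baseline replicate 1, the library in which Aspn and Ogn were 0.84 and 0.88 above their means, while in P10 baseline replicate 2 they were 1.18 and 1.04 below.

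**Figure D4:**
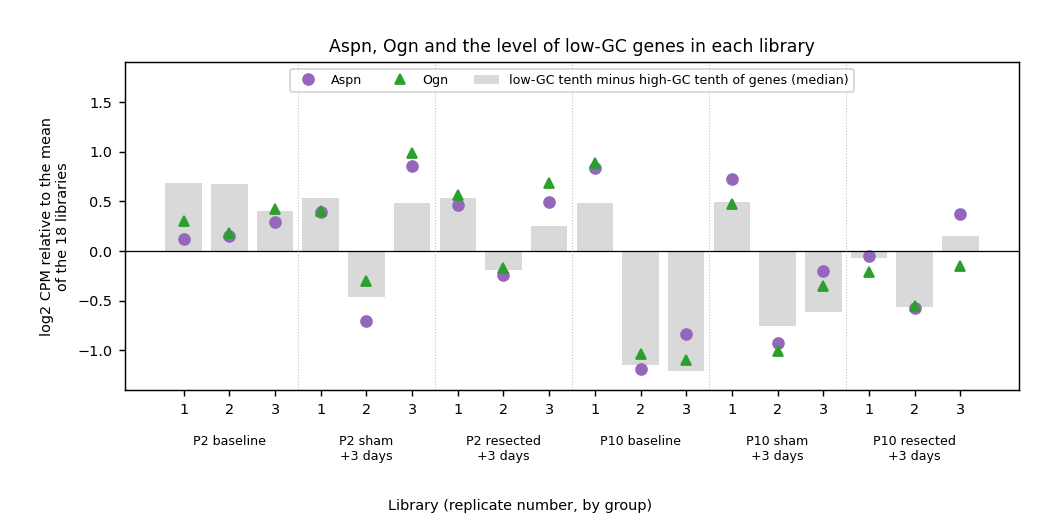
Log2 CPM of Aspn (purple circles) and Ogn (green triangles) in each library relative to their means over 18 libraries, with grey bars for the median of the tenth of genes lowest in GC less that of the tenth highest. Both genes and the bars are low together in P10 baseline replicates 2 and 3 and in P10 sham replicate 2, and high together in P10 baseline replicate 1.

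With this difference added as a term to the fit, a choice made after the values were seen, the spread of Aspn within groups fell from an SD of 0.70 to 0.24 log2 units and that of Ogn from 0.65 to 0.25. The spread of Bgn (0.23 and 0.23), Prelp (0.22 and 0.23) Lum (0.35 and 0.35), Fmod (0.91 and 0.92), Podn (0.79 and 0.82) and Omd (2.03 and 2.05), the last with a GC share of 36.1%, did not narrow, and that of Dcn, whose transcript has a GC share of 37.4%, went from 0.32 to 0.28. In that fit the window log2 fold change of Aspn was 0.36 (adjusted p = 0.106 in edgeR) and that of Ogn 0.02 (adjusted p = 0.959), so that neither was called and both changed sign. The 5 members called over the windows were called in that fit too, Dcn at 1.14, Bgn at 0.59, Lum at 0.84, Prelp at 0.80 and Podn at 3.71, and Omd was called besides, at 2.30 (adjusted p = 0.022 in edgeR). The GC difference itself ran partly with age. It was above 0 in the P2 libraries other than P2 sham replicate 2 (-0.46) and P2 resected replicate 2 (-0.19). It was under 0 in the P10 libraries other than P10 baseline replicate 1 (0.48), P10 sham replicate 1 (0.49) and P10 resected replicate 3 (0.15). The parts of age and of this term in the values of that fit cannot be told apart fully. Whether the GC difference between libraries has a technical or a cellular source was not tested.

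Dcn and Lum, the neighbours on chromosome 10, were likewise closest to each other among all genes, with a root mean square difference of 0.23. With P10 baseline replicates 2 and 3 left out, Dcn was again the closest to Lum (0.24), but Lum was only the fourth closest to Dcn, after Ctso, Cd34 and Selenop. Over all 18 libraries, the genes outside the family closest to Dcn were Selenop (0.24), Ctso and Cd302 (0.25 each), and to Lum Fap and Selenop (0.26 each) and Ctsk (0.28). Closest to Podn were Pcolce2 (0.76), whose protein aids the cleavage of procollagen, Thbd (0.95) and Crispld2 (0.96), whose log2 differences between the windows were 3.44, 2.55 and 2.37, as their likeness to Podn entails. Closest to Prelp were Ecm1 (0.21), Snrk and Rnf167 (0.22 each), and to Bgn Psap, Col1a2 and Col3a1 (0.23 each). Which genes were nearest depended on these libraries. Without P10 baseline replicates 2 and 3, the nearest 3 genes outside the family shared 3 with those over all libraries for Ogn, 2 each for Dcn, Lum, Bgn and Prelp, 1 each for Aspn and Podn (Pcolce2, still the closest), and 0 for Fmod and Omd. These are likenesses of profile over 18 libraries that share the age groups, not evidence of shared control.

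Fmod and Omd were present at low levels and varied greatly between replicates. Fmod, fibromodulin, a keratan sulfate member that guides collagen cross-linking, was 11.3, 4.65 and 11.2 CPM at P2 baseline and 12.2, 21.1 and 18.0 CPM at P10 baseline. All P10 baseline libraries lay above all P2 baseline libraries, but the log2 fold change of 0.92 had a 95% interval of -0.45 to 2.29 and was not called (adjusted p = 0.491 in edgeR). It was 0.46 without P10 baseline replicates 2 and 3 (adjusted p = 0.88 in edgeR), and the window value then was -0.12 (adjusted p = 0.938). Over the windows it was 0.02 (95% interval -0.76 to 0.81), and the highest value of all was in the P2 window, 59.5 CPM in P2 resected replicate 3. The genes nearest to Fmod in profile, Lif, Ddah1 and Gpc1, were distant at 0.65 to 0.66. Omd, osteomodulin or osteoadherin, known mainly from bone, was 4.97, 2.14 and 2.44 CPM at P2 baseline and 13.2, 2.83 and 0.887 CPM at P10 baseline. After sham surgery it was 0, 2.07 and 6.26 CPM at P2 and 24.3, 13.8 and 12.4 CPM at P10, so that the sham groups did not overlap. Their log2 fold change of 2.61 was called without a filter on low counts (2.64, adjusted p = 0.0126 in edgeR) and not with it. The log2 fold change over the windows was 1.56 (95% interval 0.21 to 2.92), with an adjusted p of 0.119 in edgeR. It was called without a filter on low counts (adjusted p = 0.00182 in edgeR), by DESeq2 (1.59, adjusted p = 0.0485) and by limma voom (2.07, adjusted p = 0.0441). Without P10 baseline replicate 1, the baseline value of Omd turned from 0.83 to -0.75, and without replicates 2 and 3 it was 2.07 (adjusted p = 0.531 in edgeR). The genes nearest to Omd in profile, Tmem62, Pou2f3 and Kcnn1, lay at 1.10 to 1.12.

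The second comparison asked whether resection changed these genes against sham surgery at the same age. No member and no gene was called at either age by edgeR's quasi-likelihood F-test after Benjamini-Hochberg adjustment (0% of 16170), although 730 genes at P2 and 661 at P10 had an unadjusted p under 0.05, and DESeq2 called 34 and 42 genes and no member. The members' median log2 fold change was 0.26 at P2 and -0.09 at P10. The member that stood out from this was Bgn. It was 1509, 1833 and 2432.5 CPM in the P2 resected libraries and 1369, 1179.6 and 899 CPM in the P2 sham libraries. At P10 it was 2448, 2384 and 3046 CPM in the resected and 1861, 1838 and 1553 CPM in the sham libraries. Every resected library thus lay above every sham library of its age, and Bgn was the only member for which the groups did not overlap, while 5.62% of all genes at P2 and 5.63% at P10 lay wholly higher. Of all genes tested, 97 or 0.600% had resected above sham without overlap at both ages.

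The log2 fold change of Bgn was 0.74 at P2 (95% interval 0.31 to 1.18, adjusted p = 1 in edgeR) and 0.58 at P10 (95% interval 0.15 to 1.02, adjusted p = 1). With libraries left out singly it stayed between 0.54 and 0.90 at P2 and between 0.46 and 0.65 at P10. The response at P10 less that at P2 was -0.16 (95% interval -0.77 to 0.46), and no gene was called for this difference (0% in edgeR, with 465 genes at an unadjusted p under 0.05 and 26 called by DESeq2). Averaged over both ages, a contrast added after the values were seen, resected exceeded sham by 0.66 (95% interval 0.36 to 0.97), a 1.58-fold difference. In that contrast 11 of all genes had a smaller p in edgeR, 934 had an unadjusted p under 0.05, and the adjusted p of Bgn was 0.366, so that neither Bgn nor any other gene was called. Beside these values, Col1a2 was 0.75 higher in P2 resected than in P2 sham (adjusted p = 1 in edgeR) and 0.47 higher at P10 (adjusted p = 1), and Col3a1 0.61 and 0.32 higher. The summed fibroblast markers, of which Col1a1 and Col1a2 make up the larger share, were 15266 to 31667 CPM in P2 resected and 10588 to 21179 CPM in P2 sham, and 23380.4 to 30772 CPM in P10 resected and 14994 to 21079 CPM in P10 sham. The summed macrophage markers were 60.9 to 388 CPM against 5.29 to 166 CPM at P2, and 61.1 to 988 CPM against 81.8 to 313 CPM at P10. The summed valve and tendon markers were 273 to 300.4 CPM in P2 resected and 220 to 258 CPM in P2 sham, and 199.9 to 309 CPM against 159 to 196 CPM at P10. The summed endothelial markers were 217 to 463 CPM against 175 to 325 CPM at P2, and 307 to 481 CPM against 256 to 473 CPM at P10. As for Bgn, the resected and sham sums did not overlap at either age for the valve and tendon markers. Sox9 alone made up most of that sum, at a mean of 230 CPM over all libraries against a median sum of 274 CPM. The macrophage and endothelial sums overlapped at both ages. The sums of the epicardial markers (4.35 to 12.2 against 1.57 to 24.0 CPM at P2, and 3.96 to 57.4 against 0 to 8.79 CPM at P10), of the mural cell markers (574 to 979 against 388 to 954 CPM, and 666 to 926 against 556 to 951 CPM) and of the cardiomyocyte markers (315 to 921 against 907 to 1262 CPM, and 239 to 720 against 163 to 814 CPM) overlapped as well. The median log2 difference of resected from sham libraries at P2 and at P10 was 2.85 and 0.77 for the valve and tendon markers, 0.71 and 1.01 for the macrophage, 0.74 and 1.47 for the endothelial, -0.39 and 4.28 for the epicardial, 0.52 and 0.16 for the mural cell, and -0.84 and 0.38 for the cardiomyocyte markers, with no gene of these lists called. The large medians of the valve and tendon and of the epicardial markers come from lists with genes at or near 0 counts. Tnmd had no count in P2 sham, and Krt8, Lrrn4 and Muc16 had none in P10 sham. The epicardial sums in P10 resected replicates 1 to 3 were 57.4, 11.1 and 3.96 CPM. The part of the markers of all these lists in the Bgn values was not tested.

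**Figure D5:**
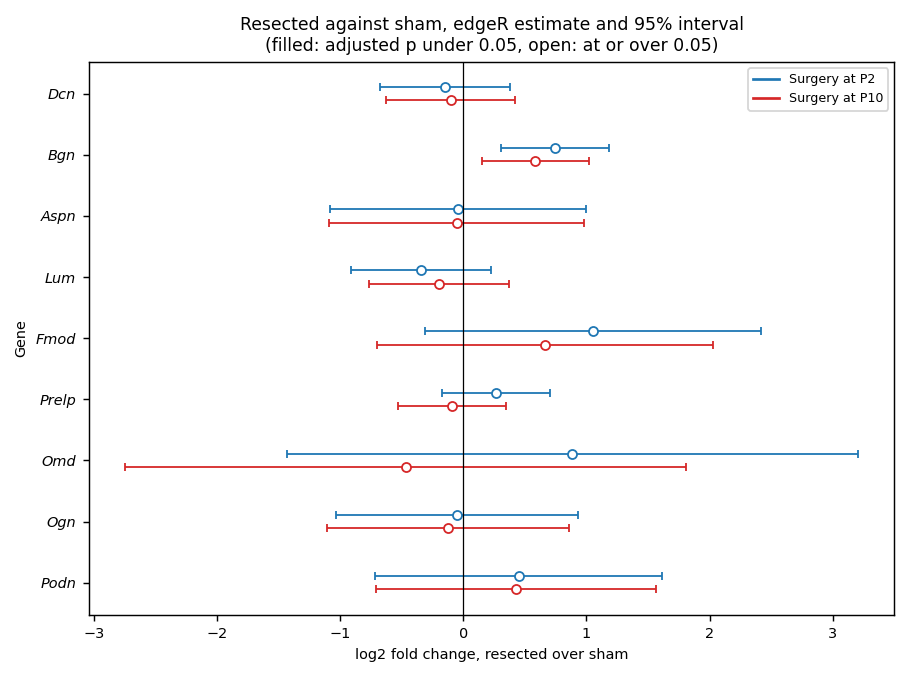
Log2 fold change of resected over sham libraries for each gene in edgeR's quasi-likelihood fit, for surgery at P2 (blue) and at P10 (red), with 95% intervals and open points since no adjusted p was under 0.05. Bgn is the gene whose interval lies above 0 at both ages, 0.31 to 1.18 at P2 and 0.15 to 1.02 at P10.

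The other members gave no difference from sham that exceeded the spread. Dcn was -0.15 (95% interval -0.68 to 0.38) at P2 and -0.11 (95% interval -0.63 to 0.42) at P10, and Lum -0.35 (95% interval -0.92 to 0.22) and -0.20 (95% interval -0.76 to 0.37), so that a 2-fold change of either lies outside these intervals at both ages. The same holds for Prelp, at 0.26 (95% interval -0.17 to 0.70) and -0.09 (95% interval -0.53 to 0.34). The intervals of Aspn, Ogn and Omd reach to 0.86 or higher and to -1.03 or lower at both ages, so that these data limit a change of these genes only loosely. Podn was 0.45 higher at P2 and 0.43 higher at P10, with intervals of -0.72 to 1.62 and -0.71 to 1.57. These values rested on single libraries, since the P2 value was 1.41 without P2 sham replicate 1 and 0.00016 without P2 sham replicate 3, and the P10 value was 0.83 without P10 sham replicate 1 and 0.13 without P10 sham replicate 3. Fmod was 1.05 higher at P2, where its 3 resected libraries were at 6.45, 22.6 and 59.5 CPM and its sham libraries at 10.7, 23.5 and 8.48 CPM, and 0.66 higher at P10. Without P2 resected replicate 3 the P2 value was 0.037. Both of its intervals include 0.

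Sham libraries of an age differ from baseline libraries by surgery and by 3 days of growth, which cannot be told apart. By edgeR's quasi-likelihood F-test no member was called in either comparison (0% of genes at P2 and 0.00618% at P10, and 1229 and 1197 genes with an unadjusted p under 0.05 in edgeR). DESeq2 called 180 and 167 genes there, Lum at P2 among them, and edgeR without a filter on low counts called Lum at P2 as well. At P2, Dcn and Lum were higher in all sham libraries than in all baseline libraries, by 0.55 and 1.04 on the log2 scale (adjusted p = 0.642 and 0.408 in edgeR), as held for 4.48% of genes. At P10 no member separated the groups, against 10.0% of genes.

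The genes that build, bind or cut these proteoglycans were taken from lists chosen by role, with earlier results of these data known, and are given for the comparison of the windows, in which 13.5% of all genes were called. Of 8 other family members, 7 were tested and 2 were called higher at P10. These were Ecm2, the neighbour of Aspn (156 ± 45.2 against 94.1 ± 21.6 CPM, log2 fold change 0.75, adjusted p = 0.00778 in edgeR), and Chadl (12.3 ± 3.44 against 7.23 ± 2.51 CPM, log2 fold change 0.78, adjusted p = 0.043). Exons of Chadl overlap those of L3mbtl2, on the other strand, over 19.5% of their length, so that its count is uncertain. The call of Chadl was lost without P10 baseline replicates 2 and 3 (0.68, adjusted p = 0.174 in edgeR). Tsku, at a mean of 26.5 CPM, was 0.37 higher and was not called (adjusted p = 0.175 in edgeR). The mean levels of Epyc, Optc, Chad, Nyx and Podnl1 over all libraries lay between 0.178 and 0.386 CPM, and none of these had counts in more than 10 libraries.

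Of 21 genes of the glycosaminoglycan linker and of chondroitin or dermatan sulfate synthesis, all tested, 5 were called higher at P10 and 1 lower, with a median log2 fold change of 0.29 against -0.06 over all genes. Among the higher ones were the sulfotransferases Chst7 (log2 fold change 0.86, adjusted p = 0.0232 in edgeR) and Chst12 (0.62, adjusted p = 0.0489), and the polymerizing factor Chpf2 (0.62, adjusted p = 0.0106), and the others were Xylt2 and Chpf. The lower one was the chondroitin synthase Chsy1, which fell by 0.62 (adjusted p = 0.00634 in edgeR). None of the 21 was called without P10 baseline replicates 2 and 3, with values of 0.61 for Chst7, 0.26 for Chst12, 0.59 for Chpf2 and -0.56 for Chsy1 (adjusted p = 0.173, 0.465, 0.0504 and 0.0561 in edgeR) and a median of 0.13. Of 7 keratan sulfate genes tested of 8, the galactosyltransferase B4galt1 (0.60, adjusted p = 0.00658) and the sulfotransferase Chst1 (1.14, adjusted p = 0.0125) were called higher and none lower. Without P10 baseline replicates 2 and 3 the values were 0.72 for B4galt1 and 1.35 for Chst1. The median log2 fold change of that list was 0.30 over all libraries and 0.21 without those 2.

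Of 14 collagen and growth factor partners, 4 were called higher (Col3a1, Col6a1, Col6a2 and Tgfb3) and 1 lower. Col3a1, the fibrillar collagen with the highest count in the table, was higher by 0.65 (adjusted p = 0.00269 in edgeR), Col6a2 by 0.46 (adjusted p = 0.0385) and Tgfb3 by 0.69 (adjusted p = 0.00572). Col12a1, a collagen of fibril surfaces, fell by 1.71 (adjusted p = 0.00299 in edgeR). None of 9 receptors tested was called, with 10 listed, whereas without P10 baseline replicates 2 and 3 Tlr4 and Lrp1 were called higher. Of 10 proteases tested of 12, 4 were called higher and none lower. Their median log2 fold change was 0.60, and 0.82 without P10 baseline replicates 2 and 3. Htra1, a serine protease, was 388 ± 57.9 CPM at P10 and 149 ± 48.6 CPM at P2 (log2 fold change 1.44, adjusted p = 2.41e-06 in edgeR), and Mmp2, a gelatinase, 3768 ± 499.7 and 2062 ± 319 CPM (0.87, adjusted p = 1.81e-05), with no overlap between the windows for either gene. Mmp3 was higher by 4.70 (adjusted p = 0.0101 in edgeR) with overlapping windows, but at baseline it was 0.243 ± 0.420 CPM at P10 and 0.705 ± 1.22 CPM at P2, and its high values were in operated P10 libraries (8.51 ± 7.76 CPM after sham surgery and 54.7 ± 70.4 CPM after resection). The fourth was Bmp1.

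Other gene groups moved with age beside the members. All 8 cell cycle genes listed were called lower at P10, with a median log2 fold change of -2.57, and their summed level was 618 to 1164 CPM in the P2 libraries and 50.3 to 322 CPM in the P10 libraries. The cardiomyocyte markers were lower for 5 of 10 genes, among them Myh7 (fell by 5.19, adjusted p = 0.0103 in edgeR, at a mean of 2.22 CPM in the P2 window), Tnnt2 (fell by 1.07, adjusted p = 0.0134 in edgeR) and Myl2 (fell by 1.22, adjusted p = 0.00898). Of these 5 calls, that of Myh7 was left without P10 baseline replicates 2 and 3. Of 8 mural cell markers, 4 were called higher over the windows, among them Kcnj8 (1.10, adjusted p = 0.000499 in edgeR), Myh11 (2.42, adjusted p = 0.00154) and Higd1b (1.02, adjusted p = 0.00211), and Mcam was called lower (-0.86, adjusted p = 0.019), a call lost without P10 baseline replicates 2 and 3 (-0.63, adjusted p = 0.116 in edgeR). The median log2 fold change of the 8 with age was 1.20 at baseline, with 4 called (1.44 with 2 called without P10 baseline replicates 2 and 3, where Kcnj8 and Myh11 lost their calls), 0.23 after sham surgery and -0.04 after resection, with none called by edgeR in either. None of the 5 fibroblast, 10 macrophage or 9 endothelial markers was called, nor any of the 7 epicardial markers tested. Their median log2 fold changes over the windows were 0.35, 0.95, -0.01 and -1.95, in that order, against 0.72 for the members. Leaving out P10 baseline replicates 2 and 3, they were 0.43, 0.11, -0.61 and -2.25, with the endothelial gene Tek called higher. The epicardial sum was only 0 to 57.4 CPM over all libraries, so that the epicardial medians rest on few counts. Of 7 valve and tendon markers, Prg4 was called higher and Sox9 lower, though Prg4 was 0.899 ± 1.02 CPM at P10 baseline and 0.913 ± 0.585 CPM at P2 baseline. The summed level of the 7 was 159 to 309 CPM at P10 and 220 to 404 CPM at P2. The part of these gene groups in the members' values was not tested.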

How the data were processed

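RNA from sorted cells was amplified with a SMARTer v4 low input kit and made into Nextera XT libraries, read from a single end. According to the submitters' processing notes, reads were trimmed with fastp 0.20.0, aligned with STAR 2.7.0f to GRCm38.p6 and counted by featureCounts of Subread 1.6.4. The authors deposited raw counts per gene symbol, counted over exons without strand and not normalized, and none of the table's library columns was left out. Here, genes were filtered with filterByExpr (minimum count 10, minimum total 15), scaled by TMM and fitted with edgeR 4.0.16 (R 4.3.3) in 1 model of 6 groups of 3 libraries, and 16170 genes were tested by the quasi-likelihood F-test with adjusted p under 0.05 as a call. Intervals are at 95%. Totals of 10462737 to 22980554 counts set the precision, and a count of 0 allows up to 3 counts. Alternatives used limma 3.58.1, DESeq2 1.42.0, other scalings and filters, the replicate number as a block, each library left out and, added after seeing the data, a GC term and 2 P10 baseline libraries left out together. The script for the test across genes was tested on simulated data.

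The members and lists were chosen with earlier results of these data known. Named besides the members were the other family members, from each further list up to 3 called genes per direction with the largest log2 fold change between the windows, Tcf21, Pdgfra, genes overlapping a member, and the 3 genes outside the family nearest to each member in root mean square difference of centred log2 CPM. Bmp1, Xylt2, Chpf, Col6a1, Col1a2 and genes named only to complete a small count were chosen after their values were seen.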

Additional observations from a re-analysis of the deposited data

Results flagged for a closer look

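Fmod in P2 resected replicate 3 stood at 59.5 CPM, far above the other 8 libraries of the P2 window, of which the next highest was P2 sham replicate 2 at 23.5 CPM. The gap was 0.657 of the whole range, above Dixon's 95% critical value for 9 libraries. In all, 18 sets of 9 libraries were looked at, each a member at 1 age, and chance marks about 1 in 20. The same library held 13 of the 21 Kera counts. Without it the age difference of Fmod after resection went from -0.62 to 0.40 on the log2 scale, not called in either case.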

How the results depend on the processing

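Podn, Dcn, Bgn, Lum and Prelp kept their direction and their call between the windows under every alternative run, and 5 to 7 members were called there. No member was called between resected and sham libraries under any of them. The comparisons of 3 against 3 libraries were less stable, and the cause was not tested where a value moved. With size factors of DESeq2 in place of TMM, a sign turned in Aspn (0.0076 for the difference of responses), Podn (0.014 for the difference of responses). Without a filter, the genes called numbered 1155 for age at baseline, 911 for age after sham, 526 for age after resection, 24 for resection at P2, 76 for resection at P10, 30 for the difference of responses, 110 for sham at P2, 151 for sham at P10, and the members called numbered 4 for age after sham, 2 for age after resection, 1 for sham at P2. With at least 1 CPM required in 9 libraries, a sign turned in Aspn (0.0039 for the difference of responses), Podn (0.0050 for the difference of responses). With DESeq2, the genes called numbered 1675 for age at baseline, 1284 for age after sham, 499 for age after resection, 34 for resection at P2, 42 for resection at P10, 26 for the difference of responses, 180 for sham at P2, 167 for sham at P10, and the members called numbered 3 for age after resection, 1 for sham at P2, and a sign turned in Aspn (0.0073 for the difference of responses), Podn (0.010 for the difference of responses). With limma voom, a sign turned in Aspn (0.058 for resection at P2, 0.036 for resection at P10, -0.015 for sham at P2), Fmod (0.027 for the difference of responses), Ogn (0.12 for sham at P10). With the GC term, added after seeing the data, the genes called numbered 1014 for age after sham, 338 for age after resection, 2 for sham at P10, and the members called numbered 2 for age after resection, and a sign turned in Aspn (0.78 for age at baseline, 0.22 for age after sham, 0.078 for age after resection, 0.36 for the windows, 0.025 for resection at P2, -0.11 for sham at P10), Ogn (0.53 for age at baseline, 0.025 for the windows), Fmod (-0.12 for the windows), Omd (0.42 for sham at P2). With P10 baseline replicates 2 and 3 both left out, also added after seeing the data, the genes called numbered 135 for age at baseline, 1401 for the windows, 10 for sham at P10, and the members called numbered 0 for age at baseline, and a sign turned in Aspn (0.66 for age at baseline, 0.030 for the windows, 0.0014 for the difference of responses, -0.81 for sham at P10), Ogn (0.60 for age at baseline), Fmod (-0.12 for the windows). With a fit of the compared groups alone, the genes called numbered 295 for age at baseline, 125 for age after sham, 332 for age after resection, and the members called numbered 0 for age after sham.

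With the replicate number as a block, the genes called numbered 1 for resection at P2, 1 for resection at P10, and the members called numbered 2 for age after resection, and a sign turned in Aspn (0.013 for resection at P2, 0.046 for resection at P10, 0.034 for the difference of responses, -0.024 for sham at P2), Ogn (0.036 for the difference of responses). The labels tie a number to no shared animal, litter or day, and the correlation of deviations exceeded 0.1 in 10 of 45 same-numbered pairs (median 0.05, from -0.12 to 0.34) and in 9 of 90 others (median -0.02), so the numbers were not taken to pair the libraries. As a hint from the data and not the design, 11 of 18 libraries correlated best with their own number. Under the block Dcn was called for age after sham (0.85, adjusted p = 0.028 in edgeR) and after resection (0.94, adjusted p = 0.0348), and Ogn for the windows (-0.65, adjusted p = 0.0481).

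With single libraries left out, the genes called ranged from 264 to 1207 for age at baseline, 0 to 9 for sham at P2, 0 to 5 for sham at P10, 312 to 627 for age after sham, 30 to 194 for age after resection, 0 to 5 for resection at P10, 0 to 4 for the difference of responses, and the members called from 1 to 3 for age at baseline, 1 to 2 for age after sham, 0 to 1 for age after resection. The following uncalled log2 fold changes crossed 0 when 1 library was left out, with these ranges. Omd ran from -1.61 to 0.38 for sham at P2, -0.75 to 1.33 for age at baseline. Fmod ran from -0.19 to 0.36 for the windows, -0.87 to 0.36 for age after sham, -1.10 to 0.40 for age after resection, -0.95 to 0.63 for the difference of responses. Podn ran from -0.20 to 1.21 for sham at P2, -0.98 to 0.43 for the difference of responses. Aspn ran from -0.39 to 0.53 for the difference of responses, -0.84 to 0.075 for age after sham, -0.39 to 0.33 for resection at P2, -0.24 to 0.47 for sham at P2, -1.19 to 0.038 for age at baseline, -0.41 to 1.02 for sham at P10, -0.37 to 0.48 for resection at P10. Ogn ran from -0.44 to 0.40 for the difference of responses, -0.33 to 0.32 for resection at P2, -0.21 to 0.43 for sham at P2, -0.54 to 0.90 for sham at P10, -0.41 to 0.35 for resection at P10. Dcn ran from -0.16 to 0.26 for the difference of responses, -0.37 to 0.053 for resection at P2, -0.24 to 0.058 for resection at P10. Lum ran from -0.10 to 0.39 for the difference of responses. Bgn ran from -0.27 to 0.026 for sham at P2, -0.31 to 0.043 for the difference of responses, -0.14 to 0.051 for sham at P10. Prelp ran from -0.21 to 0.024 for resection at P10.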

Other observations

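Together the 10 genes took 1.14% ± 0.146 of the counts at P2 baseline and 1.76% ± 0.398 at P10 baseline (SD, 3 libraries each). The share was 1.56% ± 0.237 and 2.25% ± 0.386 after sham surgery, and 1.45% ± 0.391 and 2.12% ± 0.397 after resection, at P2 and P10 respectively. Much of this difference was Dcn. Without Dcn the share was 0.530% ± 0.033 at P2 baseline and 0.670% ± 0.165 at P10 baseline. It was then 0.688% ± 0.149 and 0.777% ± 0.110 after sham surgery, and 0.678% ± 0.125 and 0.782% ± 0.119 after resection. Dcn alone was the fourth most abundant gene over all libraries, with 1.02% of the counts, behind the collagen genes Col3a1 (3.71%) and Col1a2 (1.04%) and the collagen-binding protein gene Sparc (1.14%). The ratio of Aspn to Ogn per kb was 1.07 to 1.41 in the 9 P2 libraries and 1.28 to 2.03 in the 9 P10 libraries, highest in P10 resected replicate 3, and the ranges overlapped.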
